A study of Mus musculus with 73 samples.

Results

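The transcripts of 10 genes of the Fanconi anaemia pathway were followed across 73 mouse mammary tumours: Fanca, Fancb, Fancc, Fance, Fancg, Fancl, Fancm, Ube2t, Fancd2 and Fanci. They were taken by symbol from the 39438 gene symbols of the deposited count table, and all 10 passed the filter on low counts. The tumours fall into 8 groups. Those labelled KB1(L1363P)P, here called L1363P, carry the L1363P variant of Brca1, which lies in the coiled coil through which BRCA1 binds PALB2, and comprise 3 adenocarcinomas, 9 carcinosarcomas and 9 sarcomatoid tumours. KP tumours comprise 5 adenocarcinomas and 3 carcinosarcomas. The remaining adenocarcinomas are 11 titled KB1P, 10 titled KB1PM with the genotype label KB1P, and 23 titled KB2P. In these established models Cre recombinase driven by the keratin 14 promoter, active in epithelial cells, deletes p53. KP tumours lack p53 alone, KB1P tumours lack BRCA1 as well, and KB2P tumours lack BRCA2 as well. The labels give no allele beyond the genotype names, no age and no treatment. They do not name the animal of each tumour, so a p-value here covers only the spread between these samples. L1363P tumours 54.1 and 54.2 share a number.

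The Fanconi anaemia pathway repairs DNA interstrand crosslinks, lesions that tie both strands together and block replication. A nuclear core complex, anchored on DNA by FANCM, holds the ubiquitin ligase FANCL, which with the conjugating enzyme UBE2T attaches ubiquitin to the pair FANCD2 and FANCI. The modified pair clamps onto DNA and recruits nucleases, after which homologous recombination, the process that needs BRCA1, PALB2 and BRCA2, completes the repair. Several of the proteins of that later step are themselves Fanconi anaemia proteins.

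Libraries held 7325180 to 31615237 counts. Sequencing runs were taken from the leading number in the library descriptions, a reading that the labels do not spell out. Run 5625 then holds all 29 libraries of L1363P and KP tumours, while KB1P, KB1PM and KB2P tumours belong to 8 others, so that genotype and run cannot be told apart between these 2 sets. The genotypes checked against Brca1 showed its level lower in KB1P with KB1PM than in KB2P tumours, by 1.08 on the log2 scale (SE 0.15, edgeR adjusted p = 7.78e-08). Brca2 was not low in KB2P tumours, with 0.09 for KB1P against KB2P (adjusted p = 0.773) and -0.99 for KP against KB2P adenocarcinomas (adjusted p = 0.00508). The summed level of 10 epithelial markers was below that of the highest sarcomatoid tumour, 475.9 CPM (a count scaled to equal library sizes), in 5 of the 64 tumours not labelled sarcomatoid. These were L1363P carcinosarcomas 17 and 4 (107.1 and 337.0 CPM), KP adenocarcinoma 90.01A (250.7 CPM), KB1PM tumour 8 (174.0 CPM) and KB2P tumour 30 (16.1 CPM). The first 3 also had high sums of mesenchymal markers, 19378 to 27497 CPM, and are called spindle-like here. In KB1PM tumour 8 and KB2P tumour 30 the mesenchymal sums were 3221 and 1752 CPM, beside medians of 3169 and 2489 CPM in their groups. Their label as adenocarcinoma is thus without support from the epithelial markers, while their mesenchymal sums were not high.

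Reads from a gene and a partner on the opposite strand cannot be told apart without strand, and the strand setting is not given. Exon bases were shared with an opposite gene by Fanca (920 bases with Zfp276), Fanci (921 with Polg, whose median level was 87.8 CPM), Fancl (462 with Vrk2), Fancc (185 with Aopep and 1373 with Gm16133) and Fancd2 (257 with Fancd2os). Fancm (575 with Gm47870 and 163 with Gm47869) and Fance (104 with CT025652.1) share bases with opposite genes of the annotation that are not counted under their own symbol. Values of these 7 genes are uncertain to that extent. In bulk tumours, fewer cells of a type and less RNA per cell cannot be told apart.

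Per kilobase of exon, the levels of the 10 genes over all tumours lay between 1.65 CPM per kb for Fancc and 9.94 CPM per kb for Fance. Both code for core complex proteins, FANCE being the one that bridges the complex to FANCD2. The other core genes lay in between, with 5.87 CPM per kb for Fancg, 4.93 for Fancl, 3.31 for Fancb and 2.91 for Fanca. The anchor Fancm stood at 2.76 CPM per kb. The substrates stood close together, Fancd2 at 3.90 and Fanci at 3.27 CPM per kb, and the conjugating enzyme Ube2t was lower, at 2.64 CPM per kb. The length used merges all annotated exons of a gene, 3192 bases for Fance, 4836 for Ube2t and 8359 for Fancc. The order therefore depends on that length and need not be the order of transcripts per cell. The Fancl mean, 16.6 CPM against a median of 12.85 CPM, is raised by 1 tumour at 226.2 CPM.

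Across the 8 groups the highest group mean exceeded the lowest by 1.67 times for Fancb and by up to 2.59 times for Ube2t. KP adenocarcinomas had the lowest mean of all groups for 6 of the 10 genes, Fanca, Fancd2, Fancg, Fanci, Fancm and Ube2t. Ube2t averaged 6.38 ± 3.18 CPM there (SD, n = 5), 6.71 ± 2.69 in L1363P sarcomatoid tumours (n = 9), 8.30 ± 3.21 in L1363P carcinosarcomas (n = 9) and 9.66 ± 2.09 in KP carcinosarcomas (n = 3). Its means were 12.7 ± 4.31 CPM in L1363P adenocarcinomas (n = 3), 13.6 ± 4.24 in KB1PM (n = 10), 16.4 ± 7.69 in KB1P (n = 11) and 16.5 ± 7.64 in KB2P tumours (n = 23). For each gene the 8 ordered means give 7 pairs of neighbours. Neighbours differed by more than both their SDs in 1 pair each for Fancd2 and Fance and in none for the other 8 genes. Neighbours in an ordered list lie close by construction, so this count does not say whether groups further apart differ.

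The pair that stood apart for Fance separated the sequencing sets. Its 5 group means in run 5625 were 17.5 to 24.5 CPM, and its means in KB1P, KB1PM and KB2P tumours were 36.3 ± 7.04, 38.7 ± 19.1 and 42.3 ± 16.0 CPM. All 29 tumours of run 5625 lay below the median of the other 44 tumours (35.3 CPM), and 21 of the 29 lay below every one of the 44. For Fancd2, 27 of 29 lay below the median of the others and 8 below all of them, and for Ube2t the counts were 27 and 1. At the other end, Fancb was below the others' median in 10 of 29. Genotype, run and histology all differ between these sets.

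**Figure D1:**
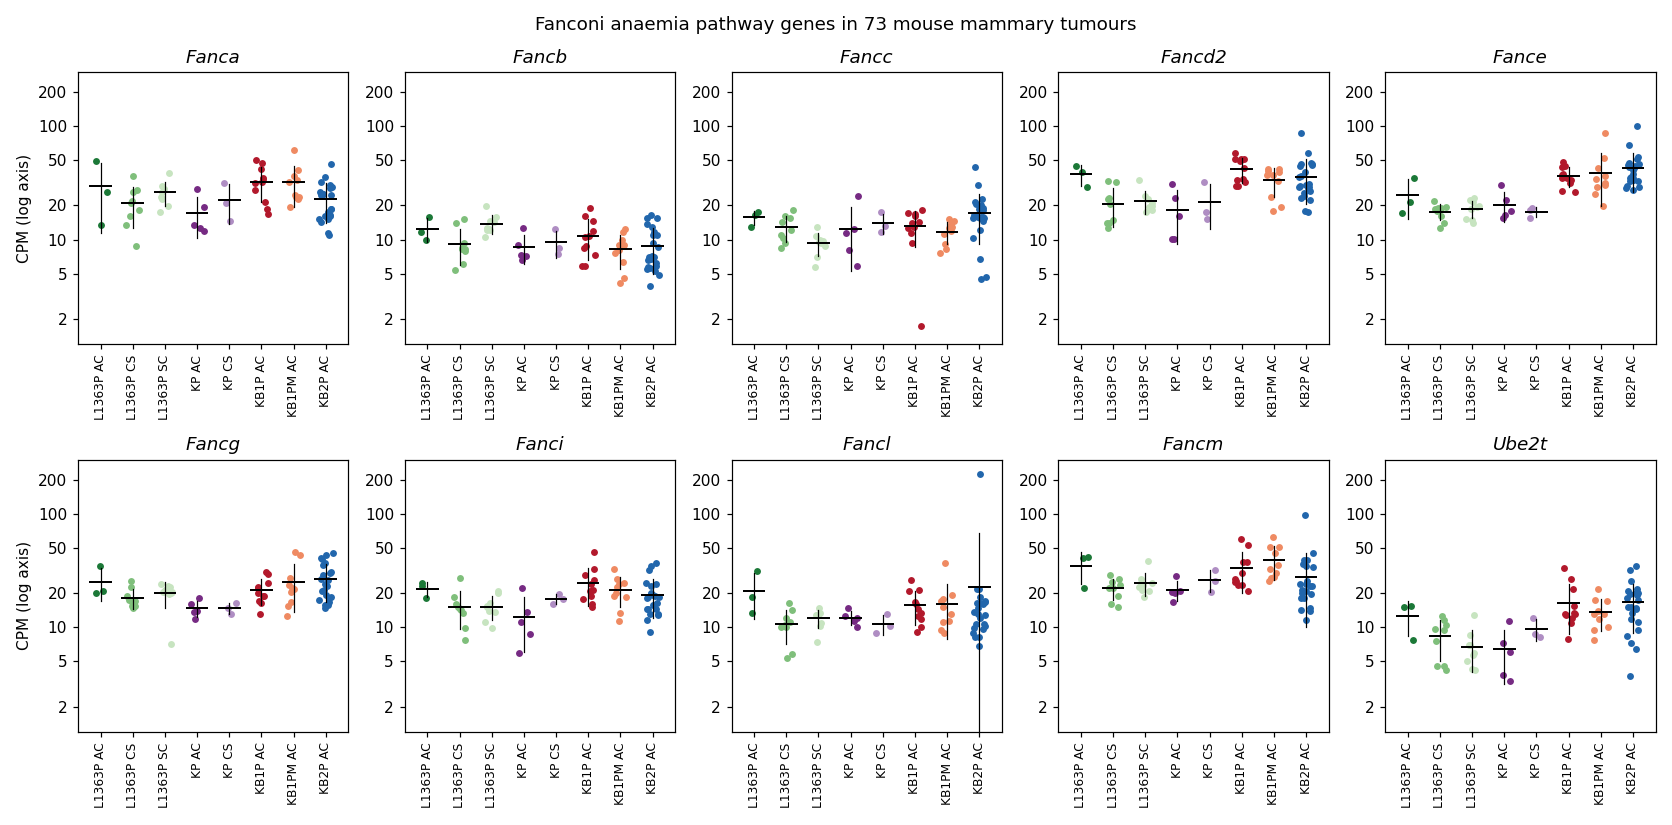
Level of each of the 10 genes in every tumour, in CPM on a logarithmic axis, by group (AC, adenocarcinoma; CS, carcinosarcoma; SC, sarcomatoid); each point is a tumour, the horizontal line the group mean and the vertical line the SD, which runs below the axis where it exceeds the mean, as for Fancl in KB2P. Fance is lower in the 5 groups of run 5625 than in the 3 KB1P, KB1PM and KB2P groups, and 1 KB2P tumour stands far above the rest for Fancl, at 226.2 CPM.

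Histology was compared first within L1363P tumours, which share genotype and run. Against the 3 adenocarcinomas, the sarcomatoid tumours had lower levels of 3 of the 10 genes, Fancl, Fancc and Fancd2, beside 30.6% of all 16147 genes tested called in either direction. None was higher. The sign was negative for 9 of the 10, with a median log2 fold change of -0.52 against -0.09 for all genes.

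Fancl, the ligase of the core complex, measured 18.3, 31.2 and 13.4 CPM in adenocarcinomas 7.2, 26.2 and 52, and between 7.35 and 14.8 CPM with a median of 12.9 in the 9 sarcomatoid tumours. Of the 9, 8 lay below all 3 adenocarcinomas, and the highest adenocarcinoma was tumour 26.2. The difference was -0.80 on the log2 scale (SE 0.26, edgeR adjusted p = 0.0229). Fancc, whose protein pairs with FANCE in the core complex, measured 13.0, 17.3 and 16.6 CPM in the same adenocarcinomas and 5.70 to 12.8 CPM with a median of 9.60 in sarcomatoid tumours. Here the groups did not overlap, and the difference was -0.76 (SE 0.29, edgeR adjusted p = 0.0477). Fancd2, the substrate that receives ubiquitin, measured 39.2, 44.6 and 29.2 CPM in adenocarcinomas and 17.5 to 33.3 CPM with a median of 19.7 in sarcomatoid tumours. In 8 of 9 it was below all adenocarcinomas, the exception being tumour 9.1, with a difference of -0.80 (SE 0.31, edgeR adjusted p = 0.0486).

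Ube2t did not pass the test, at -0.92 (SE 0.37, edgeR adjusted p = 0.0572). Its levels were 7.71, 15.3 and 15.1 CPM in the adenocarcinomas and 4.18 to 12.8 CPM with a median of 5.93 in sarcomatoid tumours. Adenocarcinoma 7.2 lay within the sarcomatoid range, and without it Ube2t passed, at -1.19 (edgeR adjusted p = 0.0380). It is the lowest of the 3 adenocarcinomas, so leaving it out must widen the difference. The 3 calls rested on few tumours. Without adenocarcinoma 26.2 none held (Fancl -0.40, p = 0.350; Fancc -0.68, p = 0.165; Fancd2 -0.66, p = 0.209, all edgeR adjusted). Fancc and Fancd2 were also lost without tumour 7.2 (adjusted p = 0.0565 and 0.121), and Fancc without tumour 52 (adjusted p = 0.127).

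Proliferation markers moved with these genes. Of 16 markers, 7 were called lower in sarcomatoid tumours, with a median of -0.70, and their summed level was 1524 to 2459 CPM against 2436 to 3698 CPM in the adenocarcinomas, with no marker at 0. With the mean of these markers as a covariate the differences were -0.55 for Fancl (edgeR adjusted p = 0.205), -0.45 for Fancc (adjusted p = 0.318) and -0.33 for Fancd2 (adjusted p = 0.449). The cell mixture differed too: epithelial markers were lower in 10 of 10, mesenchymal markers higher in 8 of 10, leukocyte markers in 4 of 5 tested and endothelial markers in 3 of 3. Of 3 adipocyte markers 1 was lower, and their sum was 21.7, 166.3 and 3933 CPM in the adenocarcinomas, so that 1 of these stands apart, against 5.70 to 116.1 CPM in sarcomatoid tumours. The part of these other cells in the result was not tested.

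The 27 other genes of the pathway hold further core partners, nucleases and the recombination proteins. Of these, 8 were called lower and 1 higher in sarcomatoid tumours, beside 30.6% of all genes called in either direction. The lower ones included Ercc4, a nuclease subunit that cuts beside the crosslink (-0.78, SE 0.19, edgeR adjusted p = 0.00384), Uhrf1, a sensor of crosslinks (-1.02, adjusted p = 0.00782), and the recombination gene Xrcc2 (-0.80, adjusted p = 0.0145). Ercc1, the partner of Ercc4 in the nuclease, was the 1 higher gene, at 0.84 (SE 0.27, adjusted p = 0.0198). Subunits of 1 nuclease were therefore called in opposite directions.

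Carcinosarcomas, tumours with an epithelial and a spindle-cell part, were next set against the same 3 adenocarcinomas, with 2.7% of all genes called. Fancl was the 1 gene of 10 called, at -0.97 (SE 0.26, edgeR adjusted p = 0.0428). It measured 5.39 to 16.4 CPM with a median of 10.5 in the 9 carcinosarcomas, a range that overlaps only the lowest adenocarcinoma. All 10 genes had negative signs, with a median of -0.50, and the sarcomatoid comparison uses the same adenocarcinomas. Ube2t was -0.60 (SE 0.37, adjusted p = 0.355). The Fancl call was lost without tumour 26.2 (-0.56, adjusted p = 0.501), without 7.2 (adjusted p = 0.0522) and without carcinosarcoma 54.2 (adjusted p = 0.0667), and 2 genes, Fancl and Fancm, were called without tumour 52. It was also lost with the proliferation covariate (-0.73, adjusted p = 0.300). Of the 16 proliferation markers 2 were lower, as were 1 of 10 epithelial and 1 of 3 adipocyte markers, and 1 of 10 mesenchymal markers was higher. Of the 27 other pathway genes none was called.

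Sarcomatoid tumours against carcinosarcomas gave the 1 call in the opposite direction. Fancb, which forms the catalytic part of the core complex with FANCL and FAAP100, was 10.5 to 19.6 CPM with a median of 12.6 in sarcomatoid tumours and 5.43 to 15.04 CPM with a median of 8.28 in carcinosarcomas. It was higher by 0.57 (SE 0.19, edgeR adjusted p = 0.0348), beside 21.5% of all genes called. The ranges overlapped, and without carcinosarcoma 54.2 the adjusted p was 0.0568. No proliferation marker was called in this comparison, while 10 of 10 epithelial markers were lower and 5 of 10 mesenchymal, 2 of 5 tested leukocyte and 1 of 3 endothelial markers higher. The part of these other cells in the Fancb difference was not tested. Of the other genes, Slx4, a scaffold for nucleases, was higher (0.47, adjusted p = 0.0137) and Rev3l, the catalytic subunit of a polymerase that copies past lesions, was lower (-1.12, adjusted p = 0.0425).

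Within the 9 L1363P carcinosarcomas the labels give the percentage of epithelial tumour, from 2 to 98%. Ube2t was 7.61 to 12.6 CPM in the 6 tumours with at least 75% epithelium. It was 4.57, 4.53 and 4.22 CPM in the 3 with 40, 5 and 2%. The high and low tumours did not overlap, and the slope was 0.15 per 10 percentage points on the log2 scale (SE 0.03, edgeR adjusted p = 0.0307), beside 8.71% of all genes called.

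Fancb ran the other way, with 14.1 and 15.04 CPM in the tumours with 5 and 2% epithelium and 5.43 to 9.27 CPM in the other 7. Its slope of -0.09 per 10 points did not pass the test (SE 0.03, edgeR adjusted p = 0.128). Without the 2 tumours of 5 and 2%, carcinosarcomas 17 and 4, the Ube2t slope was 0.20 and did not pass (adjusted p = 0.863), and the Fancb slope turned to 0.08. Without carcinosarcoma 54.2 the Ube2t slope was 0.15 (adjusted p = 0.0533), and with the proliferation covariate 0.12 (adjusted p = 0.0669). None of the 16 proliferation markers was called along this axis. With more epithelium, 3 of 10 mesenchymal and 4 of 4 tested leukocyte markers were lower. Of the 10 epithelial markers only 5 were tested, and 0 were called higher (median slope 0.27). Carcinosarcoma 6, labelled 95%, had an epithelial sum of 937.3 CPM, against 2564 CPM in tumour 18, labelled 40%. The labels were thus not matched by epithelial RNA in every tumour. Summed levels over the 9 tumours ran from 3048 to 27497 CPM for the mesenchymal list and from 192.4 to 1628 CPM for the leukocyte list, in which 1 marker was at 0 in some tumour. Their part in the slopes was not tested.

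**Figure D2:**
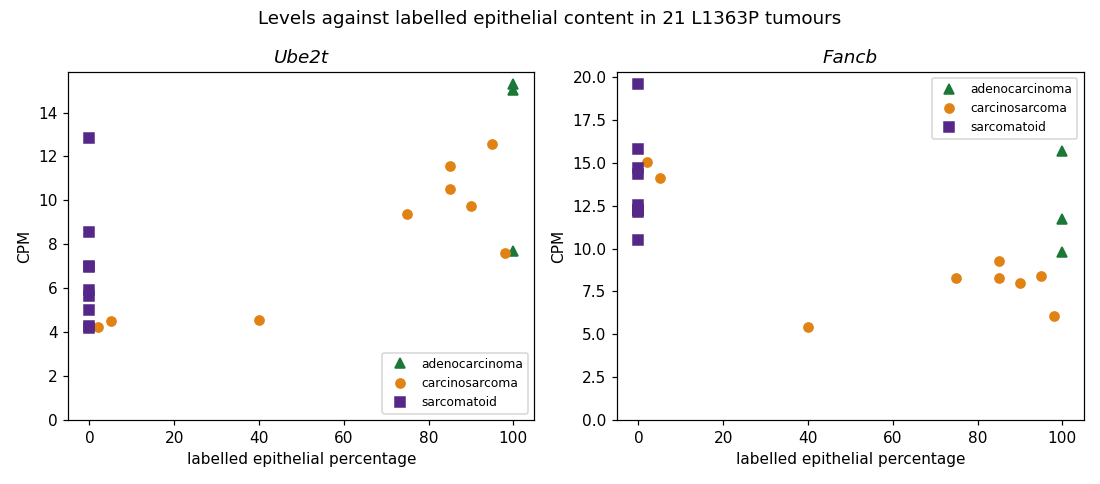
Levels of Ube2t and Fancb in CPM against the labelled percentage of epithelial tumour in the 21 L1363P tumours, with 1 point per tumour and histology by symbol. In the carcinosarcomas of 2 and 5% epithelium Ube2t is low (4.22 and 4.53 CPM) and Fancb high (15.04 and 14.1 CPM).

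In KP tumours, carcinosarcomas against adenocarcinomas gave no call for any of the 10 genes. Of all genes tested by edgeR 0 were called, while 1926 had an unadjusted p under 0.05. The cell mixture of this contrast was not that of L1363P. KP carcinosarcomas are labelled 80 to 90% epithelial, against 2 to 98% in L1363P, and KP adenocarcinoma 90.01A is spindle-like. Marker medians were 0.45 (epithelial), -0.51 (mesenchymal) and 0.51 (proliferation), against -1.07, 1.51 and -0.64 in L1363P. Of the 10, 8 had positive signs, with a median of 0.22. Ube2t measured 8.17, 8.76 and 12.0 CPM in carcinosarcomas 26.02A, 130.10A and 5. In adenocarcinomas 89.01A, 90.01A, 131.03A, 39 and 40 it measured 3.81, 3.38, 11.3, 6.09 and 7.34 CPM. All 3 carcinosarcomas lay above 4 of the 5 adenocarcinomas. The difference of the histology effects between L1363P and KP was negative for all 10 genes, with a median of -0.83, and none passed (0.0124% of all genes were called). Proliferation markers had a median of -1.31 in that difference. The part of proliferation and of the cell mixture was not tested. With DESeq2 and limma the count of the 10 genes was likewise 0 in both comparisons.

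Adenocarcinomas of L1363P and KP were compared within run 5625, where 0.211% of all genes were called. All 10 genes were positive in L1363P and none passed, with log2 fold changes of 0.27 to 1.06 and a median of 0.78. Fancd2 came nearest. Its 5 KP levels were 10.0, 23.1, 31.0, 16.2 and 10.1 CPM in tumours 89.01A, 90.01A, 131.03A, 39 and 40, so that KP tumour 131.03A reached into the L1363P range of 29.2 to 44.6 CPM. The difference was 1.06 (SE 0.34, edgeR adjusted p = 0.171), and without KP tumour 131.03A it was 1.32 and passed (adjusted p = 0.0463). That tumour is the highest of the KP tumours, so leaving it out must widen the difference. Over 8 single left-out tumours, 0 to 1 of the 10 genes were called. Fancg, a scaffold of the core complex, was 20.8, 20.2 and 34.7 CPM in L1363P and 11.8 to 17.9 CPM in KP tumours, without overlap and without passing (0.78). Ube2t was 0.99 (SE 0.41, adjusted p = 0.256) and -0.06 with the proliferation covariate. The proliferation markers had a median of 0.95, with 1 of 16 called higher, and summed to 1106 to 2592 CPM in KP adenocarcinomas.

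Among the 14 comparisons, those of KP adenocarcinomas with the other runs held the most calls. Against KB1P with KB1PM tumours 7 of the 10 genes were called lower, Fance, Fancd2, Ube2t, Fanci, Fanca, Fancg and Fancm, beside 27.3% of all genes called in either direction. Against KB2P 5 were called lower, Fance, Ube2t, Fancd2, Fancg and Fanci, beside 35.3% of all genes. The comparisons share the KP tumours. All 10 signs were negative in both, with medians of -0.82 and -0.75.

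Ube2t was 7.76 to 33.4 CPM in the 21 KB1P and KB1PM tumours, with a median of 13.2. All 5 KP tumours, at 3.38 to 11.3 CPM, lay below that median, and 4 lay below all 21. The differences were -1.23 against KB1P (SE 0.34, edgeR adjusted p = 0.00451) and -1.38 against KB2P (SE 0.34, adjusted p = 0.00108), where the levels were 3.71 to 34.8 CPM with a median of 15.1.

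Fancd2 had a median of 37.3 CPM in KB1P with KB1PM tumours and 30.1 CPM in KB2P tumours, against 16.2 CPM in KP tumours. Of the 5 KP tumours, 3 lay below every KB1P and KB1PM tumour and 3 below every KB2P tumour. The log2 differences were -1.04 (SE 0.27, edgeR adjusted p = 0.00227) and -0.98 (SE 0.27, adjusted p = 0.00285). Its partner Fanci was lower, at -0.88 (SE 0.26, adjusted p = 0.00789) and -0.64 (SE 0.25, adjusted p = 0.0416), with 3 and 2 KP tumours below all others. Tumour 131.03A, at 22.4 CPM, lay above both medians of Fanci, 21.4 and 18.6 CPM.

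Fance was lower, at -0.88 against KB1P (SE 0.23, edgeR adjusted p = 0.00213) and -1.06 against KB2P (SE 0.23, adjusted p = 0.000182), with all 5 KP tumours below the medians of 34.5 and 37.4 CPM. Fancg was lower, at -0.65 (SE 0.24, adjusted p = 0.0392) and -0.86 (SE 0.25, adjusted p = 0.00467). Fanca, part of the core complex with FANCG, was called against KB1P only, at -0.91 (SE 0.29, adjusted p = 0.0122), and so was Fancm, at -0.75 (SE 0.29, adjusted p = 0.0412). In the direct comparison of KB1P with KB2P, Fanca passed and Fancm did not.

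Leaving out single tumours ended some of these calls. Against KB1P, Fancg was lost without any 1 of the 5 KP tumours (edgeR adjusted p = 0.0560 to 0.101), Fancm without KP tumour 89.01A, 90.01A, 131.03A or 39 (adjusted p = 0.0762 to 0.110) or KB1P tumour 6 (adjusted p = 0.0584), and Fanca without KP tumour 40 (adjusted p = 0.0605). Against KB2P, Fanci was lost without KP tumour 89.01A, 90.01A, 39 or 40 (adjusted p = 0.0678 to 0.172) or KB2P tumour 2 (adjusted p = 0.0584). Ube2t, Fancd2 and Fance held in both comparisons without any of these. Without the 3 adenocarcinomas of low epithelial markers, 6 and 4 genes were called.

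Proliferation markers were lower in KP adenocarcinomas too, 8 of 16 against KB1P (median -0.79) and 10 of 16 against KB2P (median -0.75). Their summed level was 1106 to 2592 CPM in KP, 1952 to 4275 in KB1P, 2123 to 3613 in KB1PM and 1910 to 4645 CPM in KB2P tumours. With the proliferation covariate Fance kept its difference (-0.90, edgeR adjusted p = 0.00595, and -1.08, adjusted p = 0.00114) and Fancd2 passed against KB1P (-0.63, adjusted p = 0.0489) but not against KB2P (-0.49, adjusted p = 0.119). Ube2t was then -0.55 (adjusted p = 0.163) and -0.57 (adjusted p = 0.137), and Fanci -0.38 (adjusted p = 0.206) and -0.08 (adjusted p = 0.818). Markers of other cells were higher in KP, with 6 of 10 mesenchymal, 4 of 6 leukocyte, 3 of 3 endothelial and 3 of 3 skeletal muscle markers against KB1P. The leukocyte sum was 169.6 to 1737 CPM in KP and 52.7 to 648.3 CPM in KB1P tumours, and the muscle sum 0.15 to 1320 CPM in KP and 0.16 to 3.41 CPM in KB1P tumours, where all 3 muscle markers were at 0 in some tumour. Their part in the result was not tested.

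Of the 27 other pathway genes, 8 were lower and 0 higher in KP against KB1P, beside 27.3% of all genes called in either direction. Against KB2P, 11 were lower and 0 higher, beside 35.3% of all genes. Core partners led both, Faap100 at -1.66 (SE 0.27, edgeR adjusted p = 3.01e-06) and -1.62 (adjusted p = 2.48e-06), and Cenpx, a histone-fold protein that binds FANCM, at -1.13 (adjusted p = 0.0003) and -1.39 (adjusted p = 8.48e-06). The nuclease gene Mus81 was lower, at -0.89 (adjusted p = 0.000846) and -1.10 (adjusted p = 3.2e-05). Brca2 was lower against KB1P (-1.08, adjusted p = 0.00353) and Uhrf1 against KB2P (-0.84, adjusted p = 0.00184).

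L1363P adenocarcinomas, of the same run as KP, gave no call among the 10 genes against KB1P (5% of all genes called by edgeR) or KB2P (9.1%), with medians of -0.01 and 0.00. Fance was the nearest, at -0.79 against KB2P (SE 0.28, edgeR adjusted p = 0.0614). Its levels of 17.2, 35.1 and 21.3 CPM in tumours 7.2, 26.2 and 52 all lay below the KB2P median of 37.4 CPM. Fance was called with DESeq2 (adjusted p = 0.0203), with limma (adjusted p = 0.0232) and without tumour 26.2 (-1.13, adjusted p = 0.0367). Against KB1P, Brca1 was higher (1.40, SE 0.26, adjusted p = 0.000133), as was Usp1, the enzyme that removes ubiquitin from FANCD2 (0.93, adjusted p = 0.0192), while Faap100 was lower (-1.23, adjusted p = 0.0147). Against KB2P, Usp1 (0.80, adjusted p = 0.0388) and the helicase gene Brip1 (0.92, adjusted p = 0.0438) were higher, and Faap100 (-1.19, adjusted p = 0.0121) and Mus81 (-0.82, adjusted p = 0.0328) lower. Faap100 was thus lower in both genotypes of run 5625 than in those of the other runs.

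**Figure D3:**
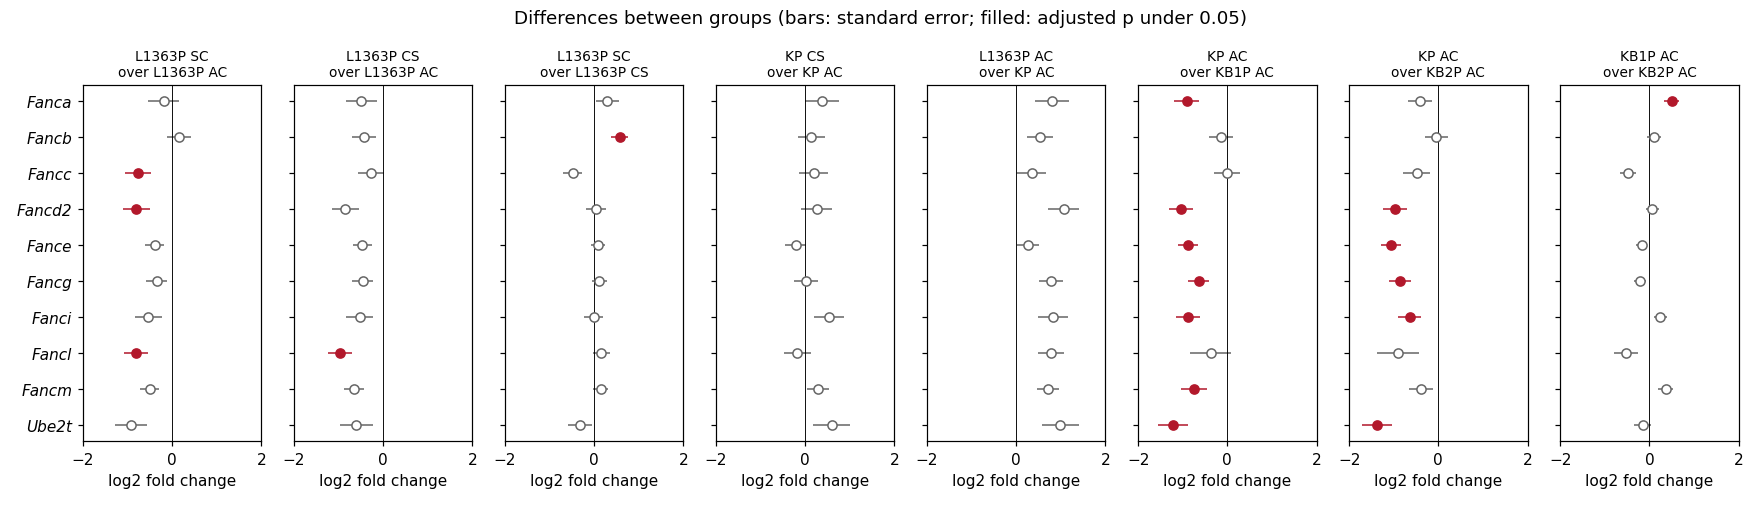
Log2 fold changes of the 10 genes in 8 comparisons, with bars of 1 SE and filled red points where the edgeR adjusted p is under 0.05. KP adenocarcinomas have 7 of the 10 genes called against KB1P, beside 27.3% of all genes, and 5 against KB2P, beside 35.3%. L1363P sarcomatoid tumours against adenocarcinomas have 3, beside 30.6% of all genes.

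KB1P tumours, with KB1PM given equal weight, were compared with KB2P tumours, where 13.2% of all genes were called. Fanca was the 1 gene of 10 called, higher by 0.50 (SE 0.16, edgeR adjusted p = 0.0289). It was 16.6 to 61.6 CPM with a median of 32.0 in the 21 KB1P and KB1PM tumours and 11.1 to 46.4 CPM with a median of 24.5 in the 23 KB2P tumours. The ranges overlap widely, with 14 of 21 above the KB2P median. Run means of Fanca were 35.9 ± 11.3 (n = 6), 30.1 ± 12.7 (n = 3) and 25.3 ± 9.57 (n = 2) CPM for KB1P, 33.7 ± 8.85 (n = 3) and 31.0 ± 14.4 (n = 7) for KB1PM, and 22.8 ± 11.1 (n = 9), 22.3 ± 7.61 (n = 12) and 24.9 ± 0.24 (n = 2) CPM for KB2P. Each of the 5 KB1P and KB1PM runs averaged above each of the 3 KB2P runs, though the closest means, 25.3 and 24.9 CPM, come from 2 tumours each. No run holds both genotypes, so they cannot be told apart. With a block on replicate numbers Fanca was 0.79 (edgeR adjusted p = 0.136). These numbers only name samples, so the block adjusts for neither run nor pairing.

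Of the 27 other pathway genes in this comparison, 2 were higher and 4 lower in KB1P, beside 13.2% of all genes called in either direction. Besides Brca1, the lower ones included Cenps, the partner of Cenpx (-0.75, SE 0.19, edgeR adjusted p = 0.00408), and Ercc1 (-0.47, adjusted p = 0.00417), and the higher ones the nuclease gene Fan1 (0.40, adjusted p = 0.0268). KB1PM against KB1P gave no call among the 10 genes (0.887% of all genes called by edgeR), with log2 fold changes of -0.38 to 0.24. Between KB2P runs 2749 and 2459, which share genotype and histology, none of the 10 was called by edgeR beside 0.675% of all genes, and the changes ran from -1.52 for Fancl (SE 0.50, adjusted p = 0.12) to 0.19. Without KB2P tumour 2 of run 2459 the Fancl value was -0.15 (adjusted p = 0.765).

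Members differed in how they tracked proliferation from tumour to tumour. Levels were centred within each group and run and correlated with the centred mean of the 16 proliferation markers over all 73 tumours, which share libraries and depth. The correlation r was 0.61 for Ube2t, 0.61 for Fanci and 0.56 for Fancd2, the enzyme and its substrates. It was 0.47 for Fanca, 0.36 for Fancl, 0.35 for Fancm, 0.28 for Fancg and 0.26 for Fancb, and near 0 for Fancc (0.04) and Fance (-0.02). The substrates and their enzyme thus stood above every core complex gene in this measure. The share of members above 0.5 was 30%, against 1.547% of the 18492 genes of the fit, whose median was -0.01. In the 29 tumours of run 5625 and the 44 of the other runs, Ube2t gave 0.73 and 0.54, Fanci 0.65 and 0.58, and Fancd2 0.57 and 0.55. Fancc gave 0.39 and -0.13, the 1 gene whose sign turned besides Fance, at 0.03 and -0.05. Among the members themselves r ran from -0.29 (Fancb with Fance) to 0.48 (Fanci with Fancl), and it was 0.44 for Fancd2 with Fanci, whose proteins form a pair.

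**Figure D4:**
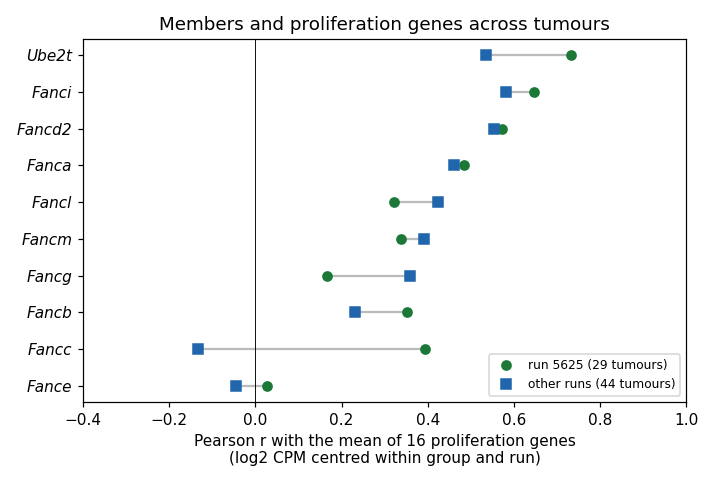
Correlation r of each gene with the mean of 16 proliferation markers, centred within group and run, in the 29 tumours of run 5625 (circles) and the 44 tumours of other runs (squares); the horizontal axis is r and each line of the vertical axis is a gene, ordered by r over all 73 tumours. Ube2t, Fanci and Fancd2 are the highest in both sets, and Fance lies near 0 in both.

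The genes most like each member were sought by the same centred correlation, naming 3 for each. Of the 30 named, 26 lie on the member's own chromosome and 20 within 10 Mb, whereas a member's chromosome holds 3.46 to 8.5% of the genes with a position. Fancm on chromosome 12 was most like 2700049A03Rik (r = 0.85, 6.06 Mb away). Ube2t on chromosome 1 was most like Snrpe (0.83, 1.36 Mb away) and Mcm6 (0.75, 6.63 Mb away). Fanci on chromosome 7 was most like the helicase gene Blm (0.78, 1.06 Mb away), and Fancd2 on chromosome 6 most like Trnt1 (0.75, 6.76 Mb away) and Mcm2 (0.75, 24.7 Mb away). Mcm2 and Mcm6 are also among the 16 proliferation markers, so the correlations of Fancd2 and Ube2t with those markers include genes of their own chromosome.

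For the core genes the nearest in pattern were Vrk2 for Fancl (0.78), Cdt1 for Fanca (0.74, 0.70 Mb away), Siah1b for Fancb (0.73), Uhrf1bp1 for Fance (0.72, 0.46 Mb away), Aopep (0.70) and Ptch1 (0.69, 0.22 Mb away) for Fancc, and Dctn3 for Fancg (0.68, 1.29 Mb away). Vrk2 and Aopep share exon bases with Fancl and Fancc on the other strand. When the search was run in each set of runs alone, 28 of 30 named genes were on the member's chromosome in the 44 tumours of the other runs and 12 of 30 in the 29 tumours of run 5625. The difference between these shares was not tested.

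Single tumours with a level at least 3-fold from their group's median were then listed. There were 6 such values, all in KB1P or KB2P tumours, and they were chosen after the values were seen. The highest was Fancl in KB2P tumour 2, with 3616 counts and 226.2 CPM, which is 17.3-fold above the group median of 13.1 CPM. The neighbour Vrk2, on the opposite strand with its start 0.09 Mb away, was 14.1-fold above its median, at 126.2 CPM. The other neighbour within 1 Mb, 5730522E02Rik, was 18.3-fold above a low median of 0.38 CPM. Of the 43 genes within 10 Mb before Fancl, 14 were at or above 2-fold, among them Mdh1 (3.79-fold) and Otx1 (3.82-fold), and of the 45 after it 3 were, while 12.51% of all genes in that tumour were that high. At or past 3-fold were 6 of the 88, and within 2 Mb Vrk2 is the only gene with a median of at least 1 CPM. Without this tumour Fancl averaged 13.4 ± 4.30 CPM in KB2P (n = 22) in place of 22.6 ± 44.6 (n = 23), and its difference between KB1P and KB2P was 0.24 in place of -0.52 (SE 0.27, edgeR adjusted p = 0.201), neither of which passed.

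Fancm in KB2P tumour 5 was 97.1 CPM, 4.23-fold above its median. All 6 neighbours within 1 Mb were at or above 2-fold, with a median of 4.76-fold, while 11.87% of all genes in that tumour were that high. Among them were Fkbp3 (5.04-fold) and Prpf39 (4.39-fold). Of the 47 genes within 10 Mb after Fancm 38 were at or above 2-fold, and of the 23 before it 6 were. At or past 3-fold were 27 of the 70.

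Low values were seen for Fancc and Ube2t. Fancc in KB1P tumour 6 had 26 counts, 1.73 CPM, 8.03-fold below the KB1P median of 13.9 CPM. Next to it Ptch1, the Hedgehog receptor, was 23.3-fold lower (2.13 against 49.8 CPM) and Aopep 3.33-fold lower (23.9 against 79.4 CPM). They are among 4 of 127 genes within 10 Mb that were at least 3-fold lower. At least 2-fold lower were 8 of 23 neighbours within 1 Mb, against 9.36% of all genes in that tumour. The 8 include Mir23b, Mir27b and Mir3074-1, which lie inside Fancc and had low medians of 0.70, 0.71 and 3.07 CPM. Mir3074-1 is also among the genes past 3-fold here and in KB2P tumour 34. Fancc was also low in KB2P tumour 34, at 4.72 CPM, 3.46-fold below the median, with Aopep 4.76-fold lower. Of 122 genes within 10 Mb in that tumour, 16 were past 3-fold and 61 at least 2-fold lower, against 11.44% of all genes at 2-fold. In KB2P tumour 21 Fancc was 4.45 CPM, 3.67-fold below the median. There 4 of 122 genes were past 3-fold and 20 at least 2-fold lower, against 14.22% of all genes at 2-fold. In tumour 21 Ube2t was low as well, at 3.71 CPM, 4.08-fold below its median, with 16 of 39 neighbours within 1 Mb at least 2-fold below theirs, against 14.22% of all genes. DNA copy number was not analysed here, so its part in these values was not tested.

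**Figure D5:**
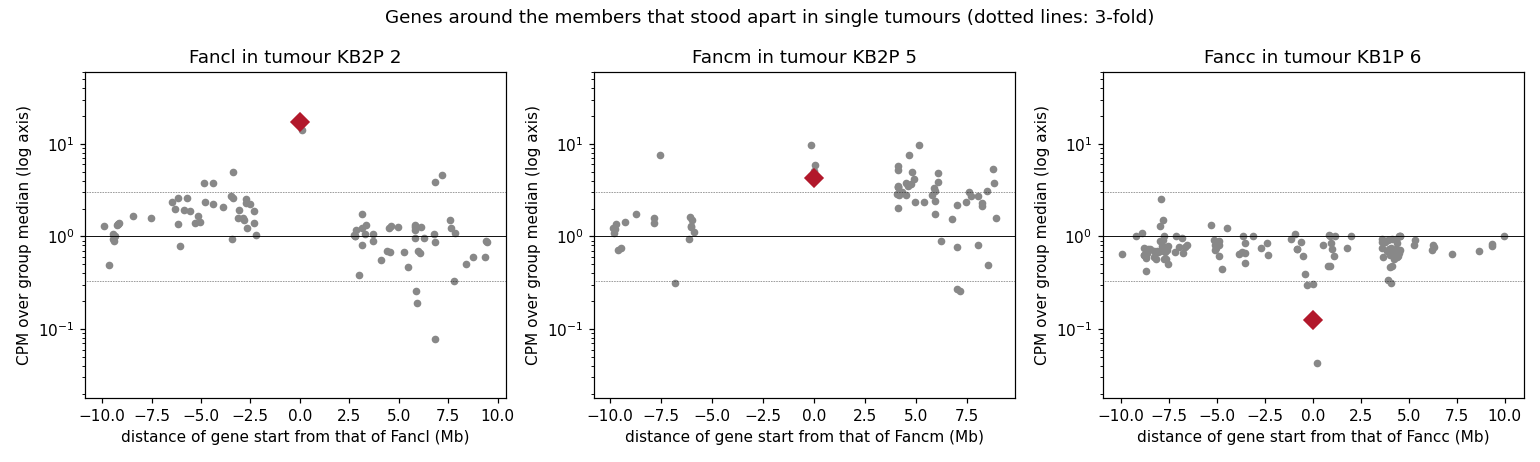
Ratio of each gene's level in 1 tumour to its group median, on a logarithmic axis, against distance from the member's start in Mb, for Fancl in KB2P tumour 2, Fancm in KB2P tumour 5 and Fancc in KB1P tumour 6; dotted lines mark 3-fold. Fancl and Vrk2 stand highest in their panel (17.3 and 14.1-fold), with 14 of 43 genes before them at or above 2-fold; after Fancm 38 of 47 genes are at or above 2-fold; Fancc and Ptch1 (23.3-fold lower) are the lowest in theirs.

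Promoters were read from RefSeq on build GRCm38.p6 for 9 of the 10 genes, all but Fancd2. Windows of 250 bases before to 50 after the start were searched on both strands for E2F cores, letters bound by the E2F regulators of S-phase genes. The cores searched were TTGGCGC and its relative TTCGCGC, and besides these the form TTCCCGC and its relative TTGCCGC. The same windows were searched for CCAAT and for the cell cycle homology region, as TTTGAA or in its other form TTCGAA. An E2F core lay in 5 of the 9, Fancb, Fancg, Fanci, Fancm and Ube2t, against 9.574% of 32851 promoters. CCAAT lay in 6, Fanca, Fancb, Fancc, Fance, Fancm and Ube2t, against 37.41% of promoters, and a cell cycle homology core in none, against 19.23%. With 150 bases before the start the counts were 4 (7.26% of promoters), 3 (28.55%) and 0 (12.04%). A match is a run of letters, not a measured binding site.

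The stretches before the start of Ube2t, called in 3 of the 14 comparisons, and of Fancb and Fancc, each called in 1, are shown in full with the matches in capitals. Ube2t holds E2F cores whose first bases lie at -159 and -127 and CCAAT at -124, -80 and -40, the pair at -127 and -124 overlapping. Fancb holds CCAAT at -201 and an E2F core at -172, and Fancc a single CCAAT at -242. The Ube2t stretch is at chr1:134962315-134962564 on the plus strand, that of Fancb at chrX:164980342-164980591 on the plus strand and that of Fancc at chr13:63431746-63431995 on the minus strand, each directly upstream of the RefSeq start, which for Fancc lies inside the longer gene of the GENCODE annotation.
Ube2t: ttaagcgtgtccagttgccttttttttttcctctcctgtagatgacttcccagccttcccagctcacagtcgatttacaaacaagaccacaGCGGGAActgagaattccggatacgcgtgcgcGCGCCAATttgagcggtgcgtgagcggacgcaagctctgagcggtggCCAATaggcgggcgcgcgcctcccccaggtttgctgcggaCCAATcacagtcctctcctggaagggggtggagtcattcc
Fancb: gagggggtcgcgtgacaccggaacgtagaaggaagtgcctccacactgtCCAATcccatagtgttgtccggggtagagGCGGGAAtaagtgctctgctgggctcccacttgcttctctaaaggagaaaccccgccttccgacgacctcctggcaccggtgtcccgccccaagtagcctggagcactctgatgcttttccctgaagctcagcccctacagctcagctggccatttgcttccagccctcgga
Fancc: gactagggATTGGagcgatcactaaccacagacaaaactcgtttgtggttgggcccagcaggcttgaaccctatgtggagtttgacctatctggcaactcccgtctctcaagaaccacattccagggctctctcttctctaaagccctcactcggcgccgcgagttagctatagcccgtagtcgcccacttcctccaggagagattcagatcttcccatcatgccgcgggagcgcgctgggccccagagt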

How the data were processed

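RNA of 73 mouse tumours was analysed from 2 deposited tables. The authors deposited whole-number read counts for 39438 gene symbols, and a second deposited table of log2 values of normalized counts, which served for limma only. Tools listed in the submitters' processing notes are STAR 2.7.3a, cutadapt 2.10, DESeq and featureCounts 2.0.0, with the build mm10. Libraries were stranded and polyA-selected, per the labels' protocols. The strand setting of the counting is not given in the sources that were used. Symbols turned into dates numbered 24 and held 0.1688% of the counts.

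Counts were tested with edgeR 4.0.16 in R 4.3.3 by the quasi-likelihood F test, after filterByExpr at a minimum count of 10 and TMM scaling, with Benjamini-Hochberg adjustment over all genes tested and a threshold of 0.05. Group comparisons within run 5625 used 1 fit of 29 libraries, the epithelial slope 1 of 9, the KB2P runs 1 of 21, and all others 1 of 73. Levels are CPM on the TMM scale of the 73 libraries. DESeq2 1.42.0, limma 3.58.1 (genes with a mean log2 value of at least 2), RLE scaling, no filter, a proliferation covariate, a replicate block and left-out tumours were the alternatives.

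The genes named are the 10 members and up to 4 of 27 other pathway genes per comparison, called genes first by adjusted p; some results are not reported here. Promoters are printed for the members called in most and in fewest comparisons, 2 of each, with ties by symbol, which leaves out Fancm. The members and lists were chosen with earlier results of these data known. On simulated counts for L1363P sarcomatoid tumours against adenocarcinomas, 15910 genes, the test recovered 19% of genes changed 2-fold and 58% of those changed 4-fold. Only 100 genes were changed at each size there, and 83 genes were called, against 4945 in the data. The adjusted p depends on how many genes change, so these shares need not be those of the tests on the data.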

Additional observations from a re-analysis of the deposited data

Results flagged for a closer look

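The 10 genes in the 4 groups of 4 to 10 tumours gave 40 sets of values, which share tumours. In these, 7 single values lay further from their nearest neighbour than Dixon's 95% limit allows. Chance gives about 1 in 20 sets only where values follow a normal distribution. The limit was applied to CPM, which need not do so, so the 7 are a list of values and not a measured excess. Fanca was 61.6 CPM in KB1PM tumour 6, with the next highest tumour at 41.1 CPM. Fance was 86.7 CPM in KB1PM tumour 1, with the next at 52.3 CPM. Fancl was 36.6 CPM in KB1PM tumour 4, with the next at 19.2 CPM. Each of these 3 core complex genes was thus high in a different KB1PM tumour.

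Among the L1363P sarcomatoid tumours, tumour 9.1 had the highest Fancd2, 33.3 CPM with the next at 24.3 CPM, and the highest Ube2t, 12.8 CPM with the next at 8.55 CPM. Sarcomatoid tumour 10 had the lowest Fancg, 7.09 CPM with the next lowest at 19.5 CPM, and the highest Fancm, 38.6 CPM with the next highest at 26.5 CPM.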

How the results depend on the processing

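Counts of members called moved with the method as follows. For sarcomatoid tumours against adenocarcinomas of L1363P, the 3 calls became 1 with RLE scaling, 1 with no low-count filter, 0 with limma and 0 with the proliferation covariate, and 0 to 3 when single adenocarcinomas were left out. For L1363P carcinosarcomas against adenocarcinomas, the 1 call became 0 with no filter, with limma, with the proliferation covariate, with only the groups compared, without the spindle-like tumours 4, 17 and 90.01A and with carcinosarcomas of at least 75% epithelium, and 0 to 2 when single tumours were left out. For sarcomatoid tumours against carcinosarcomas the 1 call became 0 with no filter and 0 without tumour 54.2. For the epithelial slope the 1 call became 0 with no filter, 0 without the spindle-like tumours and 0 without tumour 54.2. The Ube2t slope also did not pass with the proliferation covariate. For KB1P against KB2P the 1 call became 2 with DESeq2 and 2 with limma, and stayed 1 without KB2P tumour 2 or KB1P tumour 6. For L1363P adenocarcinomas, leaving out single tumours gave 0 to 1 against KP, 0 against KB1P and 0 to 1 against KB2P, where DESeq2 and limma each gave 1. For KP adenocarcinomas the proliferation covariate left 2 of 7 calls against KB1P and 1 of 5 against KB2P, and leaving out single tumours gave 5 to 6 and 4 to 6. For KP carcinosarcomas, the interaction and the runs of KB2P, every left-out tumour gave 0. The count of members with CCAAT, 6, became 3 in the narrower window. Signs turned in 5 cases. With the proliferation covariate Ube2t was 0.18 for L1363P carcinosarcomas against adenocarcinomas and -0.064 for L1363P against KP adenocarcinomas. Without the spindle-like tumours the Fancb slope was 0.077 per 10 points. For KB1P against KB2P, Fancl was 0.036 with limma and 0.24 without KB2P tumour 2, and kept its sign, at -0.57, without KB1P tumour 6. The cause of these changes was not tested.

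KB1P, KB1PM and KB2P tumours share replicate numbers that only name samples. With a replicate block the 1 member called for KB1P against KB2P became 0, and for KB1PM against KB1P the count stayed 0.

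Limits are the 3 L1363P adenocarcinomas, the 5 KP adenocarcinomas, the genotypes sequenced in separate runs, and low counts: Ube2t had 40 to 624 reads per tumour and Fancc 26 to 679. The self-test recovered 31.6% of 2-fold changes for KP against KB1P adenocarcinomas and 14% for L1363P against KP adenocarcinomas, so a change of that size can be missed. It called 104 and 69 genes, where the data gave 5045 and 34 calls. The shares therefore hold for the simulated number of changes and need not be those of the tests on the data.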
